A study of Mus musculus with 16 samples.

Results

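The genes described here are 10 genes that make or help to make prostaglandins, thromboxane and leukotrienes: Pla2g4a, Ptgs1, Ptgs2, Ptgds, Hpgds, Ptges, Tbxas1, Alox5, Alox5ap and Ltc4s. They were found by symbol among the 24411 genes of the count and TPM tables, and all 10 were present. RNA was sequenced from the spinal cord of 16 female C57BL/6J mice: 7 given atorvastatin after injury (SCI + Atorvastatin), 7 given its vehicle after injury (SCI + Vehicle) and 2 without injury (Uninjured Control). The injured mice had a lateral compression spinal cord injury (SCI) at 12 wk of age. From 2 wk after injury they received atorvastatin, an inhibitor of the rate-limiting enzyme of cholesterol synthesis, at 10 mg/kg each day for 4 wk, or the vehicle of DMSO, PEG 400, Tween 80 and saline alone. At 6 wk after injury a 5 mm piece of cord around the injury, or its counterpart from an uninjured mouse, was taken after perfusion with saline. The uninjured mice had neither the injury nor the vehicle and, by the study's methods, were several weeks younger at collection than the injured mice, so injury, vehicle and age cannot be told apart in comparisons with them.

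Eicosanoids are short-lived signalling lipids made from arachidonic acid. A cytosolic phospholipase (Pla2g4a) frees arachidonic acid from membranes, and the cyclooxygenases (Ptgs1, Ptgs2) turn it into prostaglandin H2, which separate synthases convert into prostaglandin D2 (Ptgds, Hpgds), prostaglandin E2 (Ptges) or thromboxane A2 (Tbxas1). In the other branch, 5-lipoxygenase (Alox5) with its partner protein (Alox5ap) makes leukotriene A4, which Ltc4s joins to glutathione to give leukotriene C4. In the central nervous system Ptgds is known from leptomeninges and oligodendrocytes, whereas Hpgds, Tbxas1, Alox5, Alox5ap and Ltc4s are best known from cells of blood-forming origin such as macrophages, microglia and mast cells.

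In the annotation of GRCm38, the assembly that mm10 represents, each of the 10 is a protein-coding gene. Ptgds (chr2:25466709-25470046), Ptgs1 (chr2:36230426-36252272) and Ptges (chr2:30889471-30929863) lie on chromosome 2. Hpgds (chr6:65117293-65144908), Alox5 (chr6:116410077-116461178) and Tbxas1 (chr6:38875404-39084585) lie on chromosome 6. Pla2g4a (chr1:149829618-149961290) and Ptgs2 (chr1:150100031-150108227) are neighbours on chromosome 1, Alox5ap (chr5:149264767-149288153) is on chromosome 5 and Ltc4s (chr11:50236461-50238616) is on chromosome 11. An antisense gene covers 268 exonic bases of Ltc4s (26.4% of them) and another covers 189 of Alox5ap (13.3%). The corresponding overlaps are 148 bases for Ptgs1 and 144 for Tbxas1. The sources used here do not say whether counting used strand, so reads of these genes and of their antisense partners cannot be separated here.

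Promoter windows of RefSeq (GRCm38.p6, 250 bases before to 50 after a transcription start) were matched by symbol for 9 of the 10 genes, with 10 windows in all. They were searched on both strands for GAGGAA (the core of the binding site of PU.1, a factor of myeloid cells), TATAAA (the TATA box), TGACGT (the core of the cyclic AMP response element) and TCACNCCAC (the sterol regulatory element, to which the factor that responds to cholesterol depletion binds). GAGGAA was found in 7 of the 10 windows (Ptgs1, Ptgs2, Ptges, Tbxas1, Hpgds, Alox5 and Ltc4s), against 28.3% of all 32851 windows. TATAAA was found in 2 (13.6% of all windows), TGACGT in 1 (7.51%) and TCACNCCAC in none of the 10 (1.24%). The windows of Hpgds, Alox5 and Tbxas1 are shown because these genes were at or near 0 in the uninjured mice and higher after SCI, and that of Ptgs2 as the window with TGACGT. Each runs 5′ to 3′ on the gene's strand, with matches to any of these motifs in capitals (in the strand shown, GAGGAA can read TTCCTC and TGACGT can read ACGTCA; the TATAAA match of Tbxas1 overlaps a match on the opposite strand). The coordinates are chr6:65144681-65144980 (minus strand) for Hpgds, chr6:116461129-116461428 (minus strand) for Alox5, chr6:38918736-38919035 (plus strand) for Tbxas1 and chr1:150099781-150100080 (plus strand) for Ptgs2.
Hpgds: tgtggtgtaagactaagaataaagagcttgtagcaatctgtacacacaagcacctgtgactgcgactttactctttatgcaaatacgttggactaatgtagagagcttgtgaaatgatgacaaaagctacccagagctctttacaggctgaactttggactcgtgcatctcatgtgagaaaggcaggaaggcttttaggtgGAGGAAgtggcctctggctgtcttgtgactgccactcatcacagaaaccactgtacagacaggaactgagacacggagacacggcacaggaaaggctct
Alox5: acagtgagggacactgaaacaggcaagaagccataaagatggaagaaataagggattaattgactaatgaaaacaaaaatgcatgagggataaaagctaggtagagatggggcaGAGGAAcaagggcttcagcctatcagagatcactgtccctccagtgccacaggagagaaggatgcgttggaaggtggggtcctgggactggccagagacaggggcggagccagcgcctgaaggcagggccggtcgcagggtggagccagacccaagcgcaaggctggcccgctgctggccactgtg
Tbxas1: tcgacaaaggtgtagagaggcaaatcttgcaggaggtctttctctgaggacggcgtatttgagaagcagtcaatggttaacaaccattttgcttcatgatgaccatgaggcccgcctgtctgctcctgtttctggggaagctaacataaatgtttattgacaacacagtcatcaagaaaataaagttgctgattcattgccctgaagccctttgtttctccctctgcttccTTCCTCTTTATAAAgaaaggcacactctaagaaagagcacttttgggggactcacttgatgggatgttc
Ptgs2: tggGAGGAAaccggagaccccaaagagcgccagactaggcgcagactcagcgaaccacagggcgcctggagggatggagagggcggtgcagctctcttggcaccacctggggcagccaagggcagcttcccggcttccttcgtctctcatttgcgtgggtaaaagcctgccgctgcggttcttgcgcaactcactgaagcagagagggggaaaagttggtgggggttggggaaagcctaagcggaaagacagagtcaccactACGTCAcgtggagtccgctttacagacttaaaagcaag
A match is a description of these letters, and no binding was measured.

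Libraries held between 14823292 and 25579826 counts on genes. Uninjured libraries had counts in 12356 and 12732 genes, against 16399 to 19338 genes in the SCI mice, although their totals were within the range of the others. Transcripts known from liver, such as Alb, stood apart in the uninjured libraries, with a summed level over 10 genes of 784 and 4563 CPM (counts scaled to the library's total) against at most 9.13 CPM in any SCI mouse. Some results against the Uninjured Control group are also given without either of its mice. Both uninjured libraries share these traits, so leaving out either does not remove them. Markers of neurons, oligodendrocytes and astrocytes were detected in every group. TPM, transcript abundance corrected for gene length and depth, is used below for levels, since it allows genes of different length to be compared. Counts and CPM are used for differences between groups. In bulk tissue, fewer cells of a type and less RNA per cell cannot be told apart.

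In the injured mice the level of Ptgds stood far above that of the other genes. Over the 14 SCI mice its median was 3642 TPM (1636 to 5925), which ranked 12 among all 24411 genes, and in each mouse it was between 19.6 and 49.0 times the summed TPM of the other 9 genes. The next by median were Hpgds (24.3 TPM), Tbxas1 (24.0), Alox5ap (18.5), Pla2g4a (16.8) and Ptgs1 (14.8), and the ranges of these neighbours overlapped. The lowest were Ltc4s (5.82 TPM), Ptges (4.17), Alox5 (3.35) and Ptgs2 (1.89), again with overlapping ranges.

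**Figure D1:**
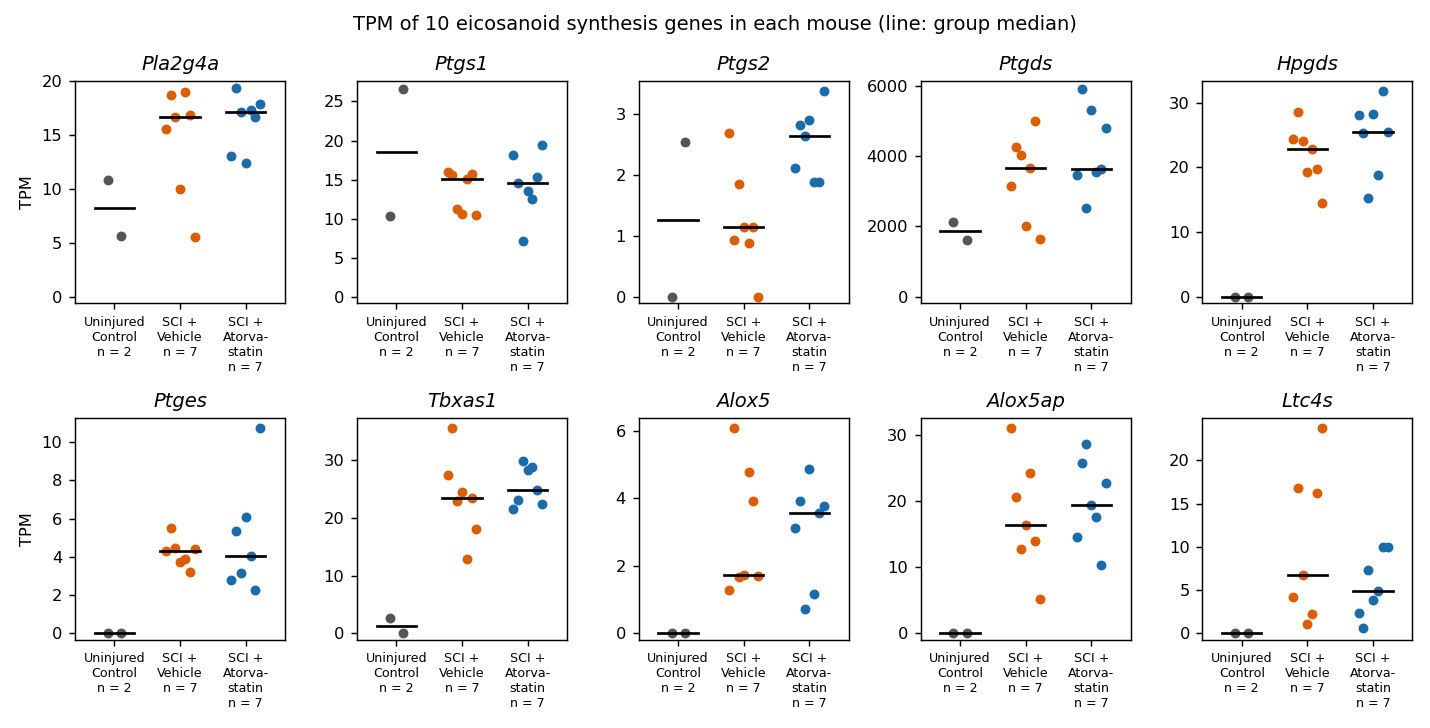
TPM of the 10 genes in each mouse, on linear axes that differ between panels, with 1 point per mouse and a line at the group median. Hpgds, Ptges, Alox5, Alox5ap and Ltc4s are at 0 in both uninjured mice, while the SCI + Vehicle and SCI + Atorvastatin points overlap in every panel.

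To ask what SCI changed, the SCI + Vehicle and SCI + Atorvastatin groups were each compared with the same 2 uninjured mice, so these comparisons are not independent. A gene was called a differentially expressed gene (DEG) at an adjusted p below 0.05 and a change of over 25% (edgeR quasi-likelihood test, Benjamini-Hochberg over 16091 genes tested). All 10 genes passed the filter on low values (a mean TPM above 1 in at least 1 group), which 5 of them passed only through the injured groups. Against the uninjured mice, 6 of the 10 genes were called higher in SCI + Vehicle and none lower, whereas 19.9% of all genes tested were called higher. With SCI + Atorvastatin in its place, 7 were higher and none lower, against 24.9% of all genes. The genes called in both were Hpgds, Ptges, Alox5, Alox5ap, Ltc4s and Tbxas1, to which Ptgds was added in the atorvastatin comparison. The 5 genes that were at 0 in both uninjured mice were set at their lower bound, which covers counting error only. The median log2 fold change of the 10 was then 4.18 and 4.13, respectively. That of all genes tested, from fitted values without such bounds, was 0.17 and 0.21. These 5 genes passed the filter only through the injured groups and could not come out lower. Their direction was thus fixed in advance in each count and median given here. All 7 SCI + Vehicle mice lay above both uninjured mice in CPM for 6 of the 10 genes (24.8% of all genes), and all 7 SCI + Atorvastatin mice for 8 of the 10 (29.8% of all genes).

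When either uninjured mouse was left out, the lone uninjured mouse was assumed to vary like the injured ones, so the number called is not compared. The median log2 fold change of all genes then rose in SCI + Vehicle, to 0.34 without replicate 1 and 0.31 without replicate 2. In SCI + Atorvastatin it rose to 0.37 and 0.33, respectively. A fit with quality weights per group (limma-voom) called none of the 10 in either comparison. It called few genes of any kind, with 15 higher and 116 lower for SCI + Vehicle and 18 and 127 for SCI + Atorvastatin.

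Of the prostaglandin D synthases, Hpgds changed most clearly. Its counts were 0 in both uninjured mice, and 453, 739 and 1049 (lowest, median and highest) in SCI + Vehicle and 488, 834 and 1002 in SCI + Atorvastatin. No injured mouse came near the uninjured ones. If only counting error is allowed for, a count of 0 leaves up to 3 counts in a library. On that basis the group mean was at least 225-fold higher in SCI + Vehicle (adjusted p = 2.0e-05, edgeR). In SCI + Atorvastatin it was at least 231-fold higher (adjusted p = 4.5e-06, edgeR). All bounds for genes at 0 use this limit of 3 counts per library (up to 0.151 CPM in the uninjured mice). They cover counting error only, as reads had no molecular identifiers in the tables. In the uninjured mice Abcc1 had 520 and 0 counts, Pla2g15 339 and 0, and Ptgis 0 and 758. Counting error does not cover such differences, and how far they loosen the bounds was not tested.

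Ptgds, which makes the same lipid and is also secreted as a carrier protein into cerebrospinal fluid, was already abundant without injury. It had 2137 and 1619 TPM in the uninjured mice, against 1636, 3655 and 4991 TPM (lowest, median, highest) in SCI + Vehicle and 2535, 3630 and 5925 TPM in SCI + Atorvastatin. Every SCI + Atorvastatin mouse was above both uninjured mice, while SCI + Vehicle replicates 4 and 7 fell within the uninjured range. On the count scale Ptgds was 2.09-fold higher in SCI + Atorvastatin (95% CI 1.29 to 3.38, adjusted p = 0.021) and 1.67-fold in SCI + Vehicle (0.946 to 2.96, adjusted p = 0.16), so only the former was called. The latter difference did not pass the test, and the direct comparison of the treatments is given below. Fibroblast markers (a list of 10 leptomeningeal or perivascular genes) moved with these values. Their summed level was 345.4 and 377.6 CPM in the uninjured mice, 191 to 1391 CPM in SCI + Vehicle and 958 to 2310 CPM in SCI + Atorvastatin. In the atorvastatin comparison 7 of the 10 were called higher (24.9% of all genes). In the vehicle comparison none was (19.9% of all genes, edgeR), and 2 had an unadjusted p below 0.05. None of these markers was at 0 in any whole group, and their part in the Ptgds values was not tested.

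Thromboxane synthase, Tbxas1, had 43 and 0 counts in the uninjured mice, against 310, 439 and 721 in SCI + Vehicle and 437, 550 and 616 in SCI + Atorvastatin (lowest, median, highest). The groups did not overlap. It was 20.5-fold higher in SCI + Vehicle (95% CI 3.72 to 113, adjusted p = 0.014) and 21.1-fold higher in SCI + Atorvastatin (4.05 to 110, adjusted p = 0.0085). The size rests on which uninjured mouse is kept: without replicate 2, the mouse at 0, the log2 fold changes were 3.33 and 3.39, lower than with both mice, and without replicate 1 only a mouse at 0 is left. Ptges, the inducible microsomal prostaglandin E synthase, was at 0 in both uninjured mice, with counts of 66, 131 and 180 in SCI + Vehicle and 66, 137 and 325 in SCI + Atorvastatin. Its group means were at least 35.6-fold (adjusted p = 0.00024) and at least 42.5-fold higher (adjusted p = 0.00033).

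The 3 genes of the leukotriene branch had counts of 0 in both uninjured mice and were called higher in both comparisons. Alox5 had 60, 89 and 281 counts (lowest, median, highest) in SCI + Vehicle and 33, 124 and 143 in SCI + Atorvastatin, at least 35.5-fold and 29.2-fold higher (adjusted p = 0.00085 and 0.00051). Alox5ap, the membrane protein that presents arachidonic acid to 5-lipoxygenase, had 72, 111 and 275 counts and 91, 181 and 214 counts, at least 42.5-fold and 49.1-fold higher (adjusted p = 0.00059 and 9.1e-05). Ltc4s had 15, 73 and 83 counts and 24, 52 and 76 counts, at least 16.1-fold and 14.4-fold higher (adjusted p = 0.0033 and 0.00063). None of the injured mice was at 0 for any of the 3, but Ltc4s was measured with few reads. Its TPM did not follow its counts, since SCI + Atorvastatin replicate 2 had 76 counts and 0.68 TPM while SCI + Vehicle replicate 7 had 80 counts and 23.7 TPM. The ratio of TPM to CPM of Ltc4s varied 34.1-fold between injured mice, against 1.17-fold for Ptgds, and its place in the order of levels is uncertain for this reason.

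Zeros were common in the uninjured libraries among genes of the same abundance. Of all genes with a mean of 50 to 100 counts over the SCI mice, 48.2% were at 0 in both uninjured mice, and among these genes was Ltc4s. For a mean of 100 to 200 counts, the range of Ptges, Alox5 and Alox5ap, it was 20.3%. It fell to 0.676% for a mean of 500 to 1000 counts, where 19 of 2810 genes, Hpgds among them, were at 0 in both. No single SCI library had more than 3.63%, 0.912% and 0.0356% of the genes of these 3 ranges at 0. At 0 in either uninjured mouse but not in both were a further 37.5%, 41.5% and 5.12%, respectively. Hpgds is thus among the few genes of its abundance that were at 0 in both uninjured libraries, and the other 4 are not.

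**Figure D2:**
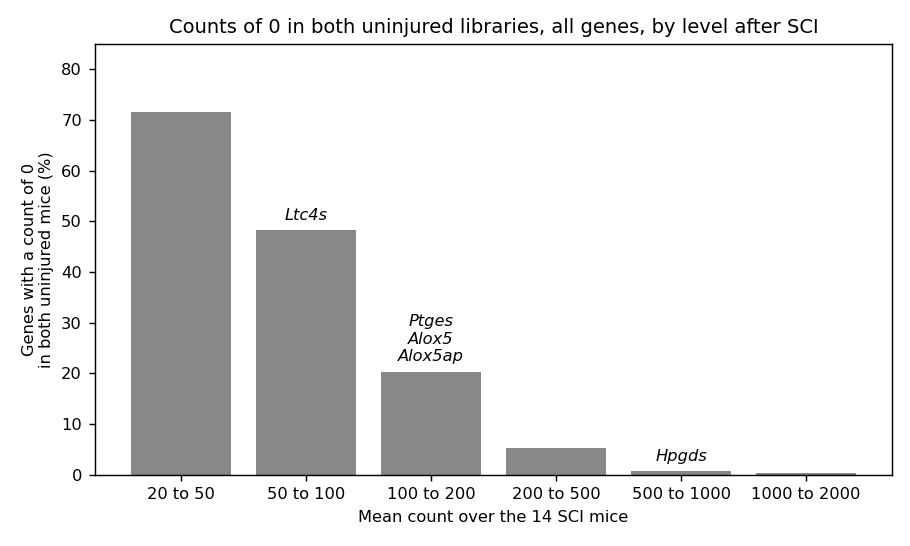
Share of all genes with a count of 0 in both uninjured mice (vertical axis, %), by the mean count over the 14 SCI mice (horizontal axis). The share falls from 71.6% at 20 to 50 counts to 0.676% at 500 to 1000 counts, and the names stand above the bars of the genes at 0 in both uninjured mice.

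The genes at the start of the pathway were not called in either comparison. Pla2g4a, which releases arachidonic acid, had 10.8 and 5.64 TPM in the uninjured mice, 5.54, 16.6 and 19.0 TPM (lowest, median, highest) in SCI + Vehicle and 12.4, 17.1 and 19.3 TPM in SCI + Atorvastatin. All 7 SCI + Atorvastatin mice were above both uninjured mice, and 5 of 7 SCI + Vehicle mice were, in CPM. Its fold change was 2.00 in SCI + Atorvastatin (95% CI 1.14 to 3.49, adjusted p = 0.051) and 1.82 in SCI + Vehicle (0.812 to 4.08, adjusted p = 0.24). The former was near the threshold, and it passed with DESeq2 and with limma on log2(TPM + 1). Both values depended on which uninjured mouse was kept. Without Uninjured Control replicate 1, the log2 fold changes of Pla2g4a were 1.69 in SCI + Vehicle and 1.84 in SCI + Atorvastatin. Without replicate 2 they were 0.33 and 0.46.

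The constitutive cyclooxygenase Ptgs1 had 10.3 and 26.6 TPM in the uninjured mice, and these 2 values enclosed every SCI + Vehicle mouse (10.4 to 15.9 TPM) and all but 1 SCI + Atorvastatin mouse (7.07 to 19.4 TPM). Its log2 fold change was -0.20 ± 0.40 (SE) in SCI + Vehicle and -0.05 ± 0.36 in SCI + Atorvastatin (adjusted p = 0.75 and 0.93). Without Uninjured Control replicate 2 both values were above 0, at 0.52 and 0.66, so no direction is given. The inducible cyclooxygenase Ptgs2 had 0 and 86 counts in the uninjured mice, against 0, 51 and 109 in SCI + Vehicle and 77, 98 and 155 in SCI + Atorvastatin. The groups overlapped, and the fold changes of 1.28 (95% CI 0.105 to 15.5) and 2.46 (0.403 to 14.97) did not pass the test (adjusted p = 0.90 and 0.42). Without Uninjured Control replicate 2, the library with 86 counts, only a mouse at 0 is left to compare Ptgs2 with. Without replicate 1 its log2 fold change in SCI + Vehicle was -0.64.

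Markers of several cell types differed between injured and uninjured mice beside these genes. For each list, the shares of all genes are 19.9% higher and 9.91% lower in the SCI + Vehicle comparison. In the SCI + Atorvastatin comparison they are 24.9% and 14%. Among 10 microglial genes, 6 were called higher in each comparison, and their summed level was 158 and 236 CPM in the uninjured mice against 781 to 1171 CPM in the SCI mice. Of the border-associated or infiltrating macrophage list, 5 of the 9 genes tested were called higher in each comparison, F13a1, Ms4a7, Ccr2, Lyz2 and Cbr2. All of these but Lyz2 were at 0 in both uninjured mice and could not come out lower. Mrc1, Cd163, Lyve1 and Pf4 were tested and not called. Mean CPM exceeded the uninjured mean in both SCI groups for Mrc1 and Cd163, in SCI + Atorvastatin only for Lyve1, and in neither for Pf4. The list summed to 21.2 and 41.2 CPM in the uninjured mice and 445 to 1377 CPM in the SCI mice. Lyz2 alone had 420 to 1269 CPM in the SCI mice. The 10 mast cell genes summed to 42.7 and 64.0 CPM in the uninjured mice and 26.9 to 42.8 CPM in the SCI mice. Under 10 counts in all mice of the group were 6 of them in SCI + Atorvastatin, 5 in SCI + Vehicle and 8 in Uninjured Control. The sum in the uninjured mice thus comes mainly from the few remaining genes of the list. Fcer1a, Cma1 and Tpsb2 had at most 9 counts in any mouse. Of the 2 mast cell list genes that could be tested 1 was higher and 1 lower in each comparison. The 1 called higher was at 0 in both uninjured mice and could not come out lower. Further, 9 of 10 neuron markers were lower in each comparison. The part of these cells in the synthesis genes was not tested.

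Neutrophil, platelet and lymphocyte lists were small in level. The shares of all genes are again 19.9% higher and 9.91% lower for SCI + Vehicle, and 24.9% and 14% for SCI + Atorvastatin. The 9 neutrophil genes summed to 26.01 and 96.5 CPM in the uninjured mice and 32.9 to 240 CPM in the SCI mice. Of the 8 tested, 2 were higher in the SCI + Vehicle and 3 in the SCI + Atorvastatin comparison. The 10 platelet or megakaryocyte genes are of interest since thromboxane is the classical platelet product. They summed to 9.88 and 21.4 CPM in the uninjured mice and 28.5 to 55.7 CPM in the SCI mice. Of the 8 tested, 1 was higher in each comparison. The 9 lymphocyte genes were all at 0 in the uninjured mice and summed to at most 18.7 CPM in any SCI mouse. The 5 tested could thus not come out lower. Of these, 1 was higher in the SCI + Vehicle and 4 in the SCI + Atorvastatin comparison. Of 10 endothelial genes, none was called in the SCI + Vehicle and 1 in the SCI + Atorvastatin comparison, and of 10 oligodendrocyte genes, 1 was higher in each, with 1 lower for SCI + Vehicle and 3 for SCI + Atorvastatin. Of 10 astrocyte genes, 5 were higher and 1 lower in each.

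The rest of the pathway was read from 4 lists with 54 genes, of which 53 were in the tables and 47 were tested. After SCI with vehicle 11 of the 47 were called higher and 2 lower than in the uninjured mice, where 19.9% and 9.91% of all genes were called. After SCI with atorvastatin 14 were higher and 3 lower (24.9% and 14% of all genes). Of those called higher, 8 of 11 and 9 of 14 were at 0 in both uninjured mice. Among the 47 tested, 14 were at 0 in both. These passed the filter only through the injured groups and could not come out lower. Their direction was thus fixed in advance in the counts of each list below. The total called was 13 and 17, and it is not compared with fits that leave a lone uninjured mouse.

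Among 13 phospholipase and arachidonate release genes, 3 were higher and 1 lower in each comparison. Of all genes, 19.9% were higher and 9.91% lower in SCI + Vehicle, and 24.9% and 14% in SCI + Atorvastatin. The median log2 fold change of the 13 was 0.36 for SCI + Vehicle and 0.49 for SCI + Atorvastatin. Anxa1, a protein that restrains phospholipase activity, had 0 and 10 counts in the uninjured mice against 76 to 677 in SCI + Vehicle and 328 to 923 in SCI + Atorvastatin, with no overlap. It was 68.7-fold higher (95% CI 9.47 to 499) and 112-fold higher (24.7 to 512), respectively. The phospholipases Pla2g4c and Pla2g2d had 0 counts in both uninjured mice and at most 71 in any injured mouse. Pla2g4e was the member that fell, at 0.357-fold in SCI + Vehicle (95% CI 0.169 to 0.755) and 0.323-fold in SCI + Atorvastatin (0.158 to 0.659).

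Of 14 other synthases and lipoxygenases tested, 2 were higher and 1 lower in SCI + Vehicle (19.9% and 9.91% of all genes). In SCI + Atorvastatin 2 were higher and 2 lower (24.9% and 14% of all genes). The median log2 fold changes were 0.08 and -0.27 (genes at 0 in both uninjured mice at their bound). Cotl1, a protein that binds actin and 5-lipoxygenase, rose 1.73-fold (95% CI 1.44 to 2.08) and 1.87-fold (1.51 to 2.31). The platelet-type 12-lipoxygenase Alox12 was at 0 in both uninjured mice and had 10 to 130 counts after SCI. Lta4h, which makes leukotriene B4 from the same precursor that Ltc4s uses, was called lower in SCI + Atorvastatin, at 0.708-fold (95% CI 0.570 to 0.881), and had a similar value of 0.745-fold (0.589 to 0.940, adjusted p = 0.058, edgeR) in SCI + Vehicle. Fam213b, which reduces prostaglandin H2 to prostaglandin F2 alpha, was lower in counts, at 0.420-fold and 0.391-fold. Its median TPM did not show this, with 55.6 in the uninjured mice, 57.5 in SCI + Vehicle and 53.8 in SCI + Atorvastatin. Counts and TPM also parted for the aldose reductase Akr1b3, listed with at most 35 counts in any mouse yet a median of 82.8 TPM in the SCI mice.

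Of 10 receptors tested, 4 were at 0 in both uninjured mice and could not come out lower, among them Ptgfr, Cysltr1 and Cysltr2. In SCI + Vehicle 2 of the 10 were higher (Ptgfr and Cysltr1), which is the share of all genes (19.9%). In SCI + Atorvastatin 4 of the 10 were higher (Ptger4 and Cysltr2 as well), where 24.9% of all genes were, with median log2 fold changes of 1.00 and 1.13. The cysteinyl leukotriene receptor Cysltr1 was at 0 in both uninjured mice, with 0 to 118 counts in SCI + Vehicle and 20 to 88 in SCI + Atorvastatin. The prostaglandin E2 receptor Ptger4 was 2.64-fold higher in SCI + Atorvastatin (95% CI 1.56 to 4.45), and its value in SCI + Vehicle was close, at 2.33-fold (1.11 to 4.91, adjusted p = 0.081, edgeR). Of 10 genes of breakdown and transport, 4 were higher in SCI + Vehicle and 5 in SCI + Atorvastatin (19.9% and 24.9% of all genes). Their medians were 1.56 and 1.64. Of these 10, 4 were at 0 in both uninjured mice and could not come out lower. Hpgd, which inactivates prostaglandins, rose 2.74-fold (95% CI 1.71 to 4.39) and 2.91-fold (1.89 to 4.48). Ggt5, which converts leukotriene C4 to leukotriene D4, went from 0 counts in both uninjured mice to 211 to 717 in SCI + Vehicle and 479 to 646 in SCI + Atorvastatin, at least 146-fold and 163-fold higher. Cyp4f18, which inactivates leukotriene B4, was also at 0 in both and at least 37.6-fold and 35.9-fold higher. Ggt1, of the same enzyme family as Ggt5, was at least 18.1-fold and 12.5-fold higher, and the transporter Abcc4 was called in SCI + Atorvastatin.

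Whether atorvastatin changed these genes within injured cord was read from SCI + Atorvastatin vs. SCI + Vehicle, where a gene was called at an unadjusted p below 0.001 and a change of over 25%. None of the 10 genes was called, and none of the 47 other pathway genes (Anxa1 and Akr1b3 had an unadjusted p below 0.05, the latter from 35 counts in SCI + Vehicle replicate 1 and 0 in the other 13 SCI mice), while 17 of 16091 genes were (0.106%). None of the 10 had an unadjusted p below 0.05 in edgeR (7.03% of all genes did), and DESeq2 called none of them either. The median log2 fold change of the 10 was 0.12, against -0.00 for all genes tested. The groups overlapped for each of the 10.

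The intervals show what size of difference these 14 mice leave possible. They were narrowest for Hpgds, at 1.03-fold (95% CI 0.831 to 1.27), and for Tbxas1, at 1.03-fold (0.825 to 1.28). For Ptgs1, Pla2g4a and Ptgds they were 0.835 to 1.42, 0.807 to 1.46 and 0.919 to 1.66 around 1.09-fold, 1.09-fold and 1.23-fold. They were wider for Alox5ap (1.15-fold, 0.762 to 1.74), Ptges (1.19-fold, 0.784 to 1.82), Alox5 (0.823-fold, 0.488 to 1.39) and Ltc4s (0.890-fold, 0.473 to 1.67).

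**Figure D3:**
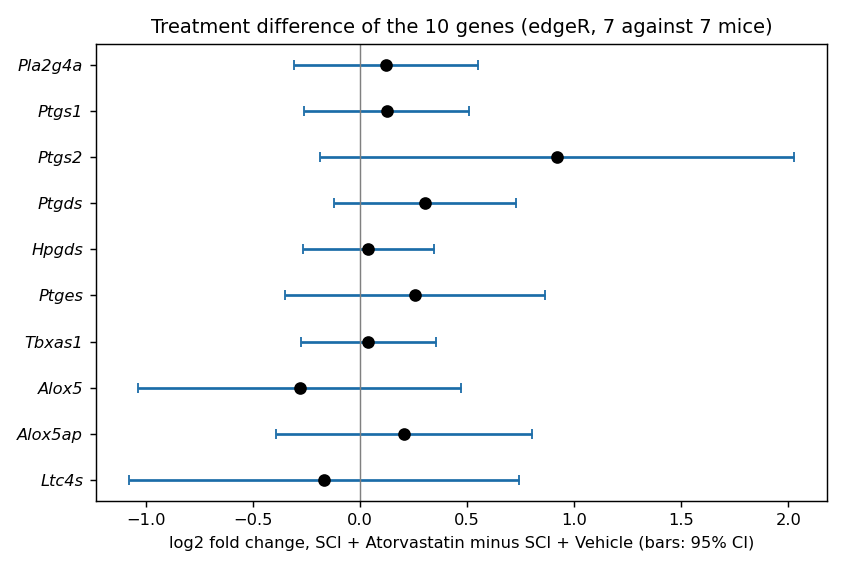
Log2 fold change of each of the 10 genes between SCI + Atorvastatin and SCI + Vehicle (points, edgeR), with 95% confidence intervals as bars. Every interval contains 0, and that of Ptgs2 is the widest, from -0.19 to 2.03.

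Ptgs2 had the largest estimate of the 10. Its TPM was 0, 1.14 and 2.70 (lowest, median, highest) in SCI + Vehicle and 1.89, 2.64 and 3.38 in SCI + Atorvastatin, and all 7 SCI + Atorvastatin mice were above the SCI + Vehicle median. The ranges still overlapped, since SCI + Vehicle replicate 1 had 2.70 TPM. Its fold change was 1.89 (95% CI 0.879 to 4.08), with an unadjusted p of 0.098 and an adjusted p of 0.75 (edgeR). Over the 23 alternatives the unadjusted p ran from 0.0075 to 0.25, and Ptgs2 was called in none.

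The balance between related enzymes was measured in each injured mouse as a ratio of TPM. There were 3 ratios, each tested by an exact two-sided permutation test over all 3432 assignments of the 14 mice to groups of 7, on log2 ratios with 0.01 TPM added to both genes. The Ptgs1 to Ptgs2 ratio was 2.68, 5.74 and 8.59 (lowest, median, highest) in SCI + Atorvastatin and 5.89, 11.5 and 17.0 in the 6 SCI + Vehicle mice in which Ptgs2 was listed above 0. Replicate 7 of SCI + Vehicle had no Ptgs2. On the log2 scale the mean was 2.48 ± 0.57 (SD, n = 7) and 4.32 ± 2.59 (SD, n = 7), a difference of -1.84 (exact permutation p = 0.015, adjusted p = 0.044 over 3 ratios). The size of this difference rests on SCI + Vehicle replicate 7, without which it was -0.89 (exact permutation p = 0.030, adjusted p = 0.089). With any other mouse left out it lay between -2.14 and -1.67 and the unadjusted exact permutation p was at most 0.048. The adjusted p was above 0.05 in 11 of the 14 omissions, with a range of 0.012 to 0.15. Marker lists of other cells were also read between the treatments, and no gene of either list below was called (edgeR). Of the 10 fibroblast markers 6 had an unadjusted p below 0.05, with a median log2 fold change of 0.81. The lowest mean z scores were in SCI + Vehicle replicates 4 and 7, at -1.67 and -2.44 for fibroblast markers. For macrophage markers theirs were -1.42 and -1.81, also the lowest. Of the 9 border-associated or infiltrating macrophage markers tested 2 had an unadjusted p below 0.05 (edgeR), with a median of 0.55. The list summed to 752 to 1377 CPM in SCI + Atorvastatin and 445 to 1240 CPM in SCI + Vehicle. Lyz2 alone had 671 to 1269 and 420 to 1141 CPM, respectively. No gene of either list was at 0 throughout an injured group, and the part of these cells in the ratio was not tested.

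The ratio of Hpgds to Ptgds did not pass the test. Ptgds exceeded Hpgds 114, 188 and 234 times (lowest, median, highest) in SCI + Atorvastatin and 104, 150 and 253 times in SCI + Vehicle. Their log2 ratios differed by -0.18 (exact permutation p = 0.42, adjusted p = 0.62). Alox5ap exceeded Alox5 by 2.89, 6.02 and 39.9 times in SCI + Atorvastatin and by 3.11, 5.09 and 23.9 times in SCI + Vehicle, a log2 difference of 0.27 (exact permutation p = 0.68, adjusted p = 0.68). In both ratios the groups overlapped widely. With 7 injured and 2 uninjured mice no two-sided permutation test of these ratios was run, and 4 of the 6 genes were at 0 in at least 1 uninjured mouse.

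**Figure D4:**
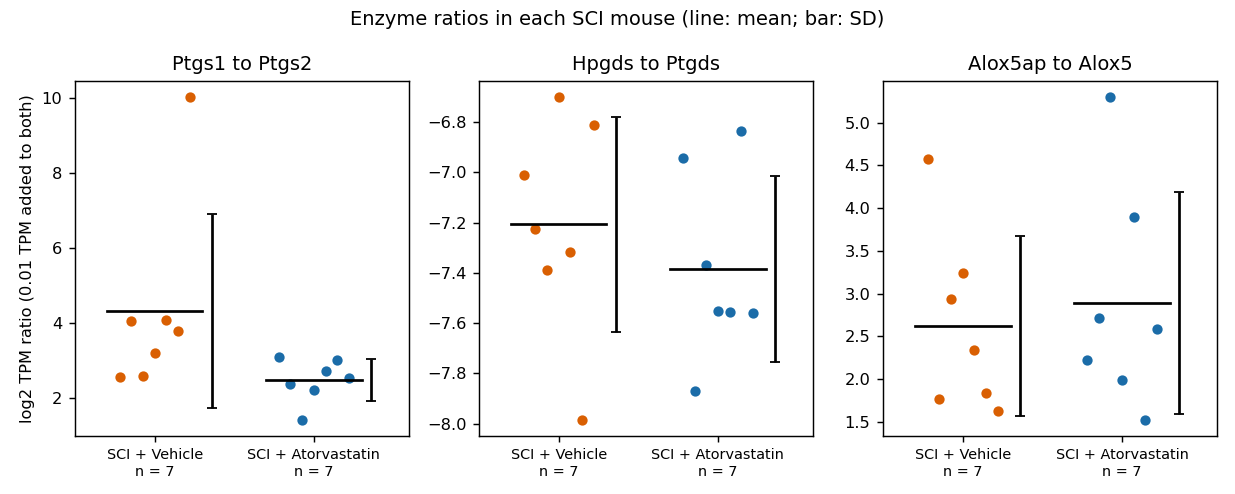
Log2 TPM ratio of 3 pairs of enzymes in each SCI mouse (1 point per mouse, line at the mean, bar for the SD). The SCI + Vehicle point near 10 in the Ptgs1 to Ptgs2 panel is replicate 7, where Ptgs2 was listed at 0 and the value is set by the 0.01 TPM added.

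How the genes varied among the injured mice was set beside 4 marker lists. The level of each gene, as log2(CPM + 0.5), was correlated with the mean z score of each list over the 14 SCI mice after the group means were removed, in 40 pairs with 100000 permutations of mice within group. After Benjamini-Hochberg adjustment over the 40 pairs, 5 passed 0.05 for Pearson's r and 5 for Spearman's rho. All genes of a mouse come from 1 library, and depth and tissue make-up are shared by both sides of each pair.

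Pla2g4a passed with 3 of the 4 lists. With the leptomeningeal or perivascular fibroblast list r was 0.947 (permutation p = 0.00012, adjusted p = 0.0048) and rho 0.921 (permutation p = 0.00040, adjusted p = 0.016), and r was 0.720 among the atorvastatin mice alone and 0.968 among the vehicle mice alone. Without the 2 mice farthest from the median, SCI + Vehicle replicates 4 and 7, r was 0.782. With the border-associated or infiltrating macrophage list r was 0.882 and rho 0.807 (permutation p = 0.00056 and 0.0012, adjusted p = 0.0075 and 0.020), and 0.622 without the same mice. With the microglia list r was 0.753 and rho 0.692 (permutation p = 0.00036 and 0.0045, adjusted p = 0.0072 and 0.036), and r was 0.814 without SCI + Vehicle replicate 7 and SCI + Atorvastatin replicate 3. Without the 2 farthest mice the fibroblast and macrophage pairs no longer passed the adjustment, and the microglia pair passed for r but not for rho (permutation, adjusted p = 0.048 and 0.067).

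Ptgds followed the fibroblast list, with r = 0.811 and rho = 0.776 (permutation p = 0.0027 and 0.0026, adjusted p = 0.027 and 0.026). It was 0.592 among the atorvastatin mice and 0.931 among the vehicle mice. Without SCI + Vehicle replicates 4 and 7 it was 0.491 (permutation p = 0.16), so the relation rests on these 2 mice. Alox5ap followed the border-associated or infiltrating macrophage list, with r = 0.776 and rho = 0.824 (permutation p = 0.0034 and 0.0015, adjusted p = 0.027 and 0.020), and r = 0.903 and 0.740 within SCI + Atorvastatin and SCI + Vehicle. Without SCI + Vehicle replicates 4 and 7 it was 0.844, which passed for r but not for rho (permutation, adjusted p = 0.048 and 0.094).

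The other genes showed no relation that passed the adjustment. Alox5 and its partner Alox5ap did not give like values, with r = -0.185 and 0.606 for the microglia list, and the difference was not tested. For Hpgds and the microglia list the groups went opposite ways, with r = -0.884 in SCI + Atorvastatin mice but 0.682 in SCI + Vehicle mice (the difference was not tested), and the pooled value of -0.058 describes neither. Ltc4s had r between -0.081 and 0.294 with the 4 lists. With the oligodendrocyte list 9 of the 10 values were below 0, and none passed.

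**Figure D5:**
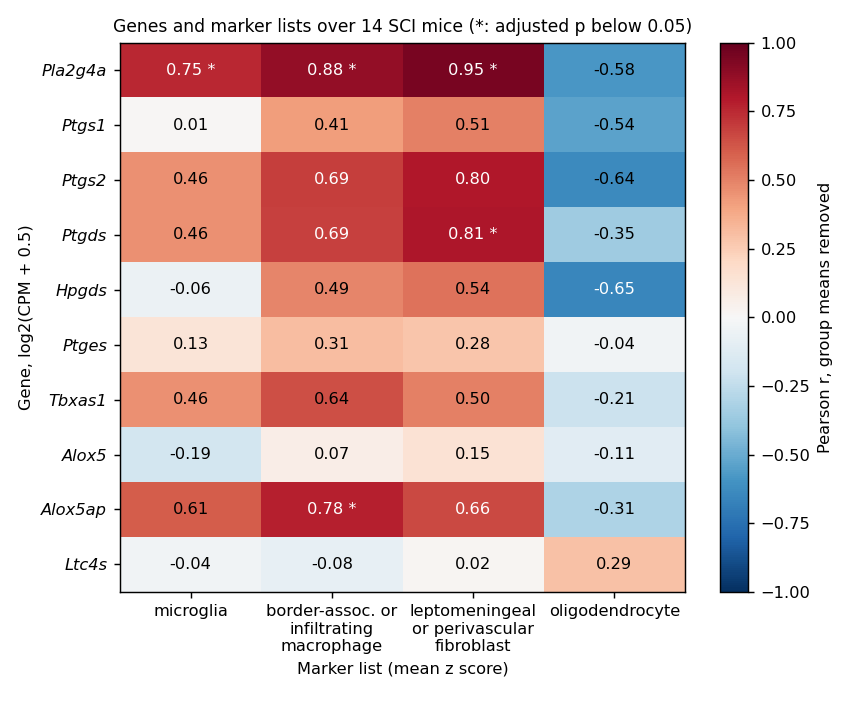
Pearson r over the 14 SCI mice, with group means removed, between each of the 10 genes (rows) and 4 marker lists (columns), with an asterisk where the adjusted p was below 0.05. The asterisks are at Pla2g4a with 3 lists, Ptgds with fibroblast markers and Alox5ap with border-associated or infiltrating macrophage markers, and the oligodendrocyte column is mostly below 0.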

How the data were processed

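Total RNA of each mouse was made into stranded libraries, and reads were trimmed (Trimmomatic 0.38), aligned to mm10 (STAR 2.5.4b) and quantified (RSEM 1.3.1), per the submitters' processing notes. The authors deposited raw whole-number counts per gene, without normalization, and TPM, normalized for length and depth. How the whole-number counts were made is not given in the sources used here.

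Groups came from the labels. The test in edgeR 4.0.16 (R 4.3.3; TMM, quasi-likelihood, 2 groups a fit, Benjamini-Hochberg) took in the 16091 genes whose mean TPM exceeded 1 in any group, with a log2 fold change limit of 0.322. Totals of 14823292 to 25579826 counts give a limit of 0.116 to 0.204 CPM for a count of 0, by counting error alone. The edgeR test was tried on simulated counts. Changes were placed only in well-counted genes, so the simulation does not cover genes at 0 in both uninjured mice. Alternatives used DESeq2 1.42.0 and limma 3.58.1, other filters and pseudocounts, a replicate block, and each mouse left out. All 10 genes are described, and list genes are named where called, at most 4 per list and direction by smallest p, or where needed to account for a list. The genes and lists were chosen with earlier results of these data known. The labels give no age at collection for the uninjured mice, and the labels' weeks are used for the other times. Positions are from GENCODE, and figures were drawn with matplotlib 3.10.9. Protein sequences were not used here.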

Additional observations from a re-analysis of the deposited data

How the results depend on the processing

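The number of the 10 genes called against the Uninjured Control group was 6 (SCI + Vehicle) and 7 (SCI + Atorvastatin). A mean TPM above 1 in every condition tests 5 of them and gave 1 and 2, and at least 10 counts in every mouse tests 3 and gave 0 and 2, as these filters remove genes at 0 in the uninjured mice. Voom with group weights gave 0 and 0, for which the cause was not tested. The replicate block also gave 0 and 0. Only replicate numbers 1 and 2 occur in both groups of these comparisons, so the block has little power in them. Of all genes it called 23 higher and 4 lower for SCI + Vehicle and none for SCI + Atorvastatin. For the other pathway genes, 13 and 17 as reported, these settings gave 3 and 7, 4 and 7, 0 and 0, and 0 and 0. With 1 mouse left out, pathway calls ran from 10 to 24 and from 16 to 28, and calls of the 10 from 6 to 7 and from 7 to 8. Replicate numbers do not pair the mice: correlations of same-numbered SCI mice ran from -0.18 to 0.10, and 0 of 14 correlated best with its own number. In SCI + Atorvastatin vs. SCI + Vehicle no alternative, the replicate block included, called any of the 10 or of the pathway genes.

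The log2 fold changes that changed sign belonged to genes that were not called in that comparison. Ptgs1 against the uninjured mice was 0.23 (SCI + Vehicle) and 0.12 (SCI + Atorvastatin) with the replicate block and, for SCI + Atorvastatin, 0.0102 with voom weights. With a mouse left out it ran from -0.68 to 0.52 and from -0.53 to 0.66, and Ptgs2 in SCI + Vehicle from -0.64 to 8.78, the latter a fitted value against a lone mouse at 0. Between treatments, with a mouse left out, the ranges were -0.0464 to 0.11 (Hpgds), -0.0314 to 0.37 (Ptges), -0.40 to 0.0429 (Alox5), -0.0265 to 0.18 (Pla2g4a) and -0.0245 to 0.13 (Tbxas1), and Alox5 was 0.015 on log2(TPM + 1). On that scale the median log2 fold change of all genes rose to 0.49 and 0.52 in the control comparisons, with 3763 genes higher and 689 lower for SCI + Vehicle (3195 and 1594 in counts) and 5078 and 1238 for SCI + Atorvastatin (4004 and 2256).

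Of the 3 enzyme ratios 1 passed, and 0 to 1 with a mouse left out, where the Alox5ap to Alox5 difference ran from -0.13 to 0.60. A pseudocount of 0 gives no value where Ptgs2 is 0 and was not run. Of the 40 marker pairs 5 passed, 0 in SCI + Atorvastatin mice alone and 2 without the 2 mice farthest from the median. Depth limits Ltc4s and Ptgs2 most, with means of 52.4 and 83.9 counts over the SCI mice.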
